A study of Mus musculus with 4 samples.

Results

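The genes described are 52 members of the Wnt pathway: ligands, receptors, antagonists, transducers, nuclear factors and target genes. They were chosen by name, and every probe set that the array's annotation assigns to a member alone was taken. That gave 119 probe sets for 51 of the 52 genes, among 18193 genes named on the array, and no probe set was named here for Tcf7. RNA came from mouse Paneth cells, antimicrobial secretory cells found at the bottom of small intestinal crypts, cut out by laser capture, amplified and labelled with biotin. There were 2 arrays of Atg16 hypomorph mice and 2 of wildtype mice, all of a mixed C57BL/6 - 129ola strain. A hypomorph allele has reduced function, and Atg16l1 encodes a protein needed to build autophagosomes. No source used here gives the allele, the age, sex or number of the animals, or whether each array had its own animal. The p-values therefore reflect a spread between samples that may be technical, and 2 arrays per group limit the precision. The test also draws the spread of each probe set toward that of other probe sets of similar intensity.

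Wnt proteins are lipid-modified by Porcn and carried out of the cell by Wls. They bind Frizzled receptors with Lrp5 or Lrp6, and Dishevelled proteins then stop the destruction complex of Apc, Axin, Gsk3b and Csnk1a1 from marking beta-catenin for breakdown through Btrc. Stabilised beta-catenin joins Tcf/Lef factors and Bcl9 on DNA. R-spondins strengthen the signal by removing the receptor-degrading ligases Rnf43 and Znrf3. In the crypt the pathway maintains stem cells and is needed for Paneth cells to mature, and Paneth cells are a known source of Wnt3.

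Values are the deposited linear intensities, given for hypomorph replicates 1 and 2 and then wildtype replicates 1 and 2, or as mean ± SD with n = 2 per group. A difference is the hypomorph mean less the wildtype mean of log2(intensity + 32), a scale that understates changes of dim probe sets. Levels are compared only within a probe set. A call is an adjusted p under 0.05 in limma, over all 22519 probe sets bright enough to test.

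The arrays had median intensities of 47.2 to 49.5 and rank correlations of 0.956 to 0.972. The brightest probe set of Atg16l1 read 966 and 995 in hypomorph and 1335 and 1183 in wildtype (log2 difference -0.35, SE 0.1, limma adjusted p = 0.102). Paneth cell products were bright on all 4 arrays, with Lyz1, which encodes lysozyme, between 14561 and 16021. Stromal RNA was present too, since the collagen gene Col1a2 read from 5683 to 7064 and the smooth muscle actin gene Acta2 from 5269 to 6541. Xist, expressed from the inactive X chromosome of female cells, averaged 4462 on the hypomorph arrays against 21.8 in wildtype, and its level follows the sex of the animal.

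Across the pathway, 2 of the 64 member probe sets that could be tested were called, 1 higher and 1 lower. That is 3.12%, against 3.71% of all tested probe sets (2.04% called higher and 1.67% called lower), so the members' share was close to the background. The probe set called higher belongs to Rspo1, an R-spondin, and the one called lower to Wls, the Wnt carrier. An unadjusted limma p under 0.05 was found for 11 of the 64 member probe sets (17.2%), against 20.5% of all tested probe sets. Without hypomorph replicate 2 the calls were 3 higher and 4 lower, with 7.32% of all probe sets called. They were 0 and 0 without wildtype replicate 1, and 1 and 0 without either of the other arrays. In 13 member probe sets both hypomorph arrays were above both wildtype arrays, and in 19 they were below. Together these are 50% of the 64, against 51.8% of all tested probe sets. Taking the brightest tested probe set of each gene, the median log2 difference was -0.02 over 39 member genes and -0.02 over all 11577 genes. Among these members 24 had a negative and 15 a positive difference, or 61.5% negative against 55.2% of all genes.

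**Figure D1:**
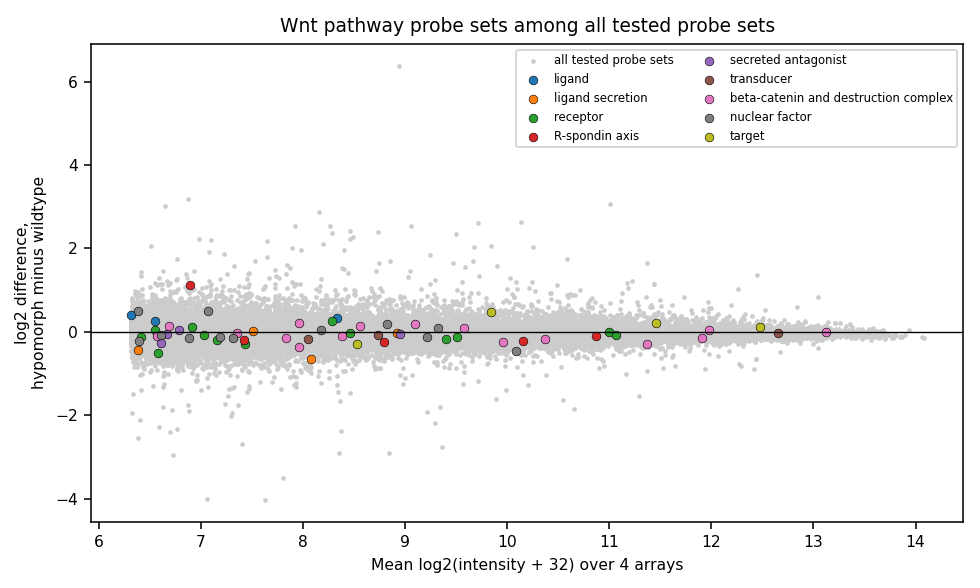
Log2 difference of each tested probe set (hypomorph minus wildtype) against its mean log2(intensity + 32) over 4 arrays. Grey points are all 22519 tested probe sets and coloured points the 64 of Wnt pathway members, by role; apart from the Rspo1 point at 1.12 and the Wls point at -0.66, the members lie at most 0.50 from 0.

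The call for Rspo1, a secreted ligand of the Lgr receptors, rests on its only probe set, 1449319_at (gene on chromosome 4). It read 129.7 and 158 in hypomorph and 38.2 and 61.2 in wildtype. Both hypomorph arrays were thus above both wildtype arrays, and the means of 144 ± 20.3 and 49.7 ± 16.2 differed 2.9-fold. The log2 difference was 1.12 (SE 0.19, 95% interval 0.69 to 1.55, limma adjusted p = 0.0126). The wildtype level lay near the brightness below which probe sets were not tested, an intensity of about 47.7, and wildtype replicate 1 lay below it. The log2 difference therefore depended on the pseudocount, from 0.62 with 4 times the one used to 1.55 with 1. The call was lost without wildtype replicate 1 (0.91, adjusted p = 0.0704), and also without the filter on dim probe sets and without the intensity trend; adjusted p-values over the alternatives ran from 9.19e-08 to 0.0871.

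Wls, the membrane protein that escorts Wnts to the cell surface (gene on chromosome 3), has 4 probe sets, and they did not move together. Probe set 1437434_a_at read 172 and 196 in hypomorph and 301 and 315 in wildtype, with no overlap. Its log2 difference was -0.66 (SE 0.15, 95% interval -0.99 to -0.32, limma adjusted p = 0.0438). The brightest Wls probe set, 1423824_at, read 472 and 425 against 406 and 510 (log2 difference -0.02, interval -0.35 to 0.30), and its groups overlapped. Another tested one, 1423825_at, read 194 and 119 against 164 and 135 (0.03), again with overlap, and the fourth was too dim to test. The fall of 1437434_a_at was not called without hypomorph replicate 1 (-0.58, adjusted p = 0.129) or without either wildtype replicate (adjusted p = 0.155 and 0.21), nor without the filter on dim probe sets or without the intensity trend. The adjusted p-values over its alternatives ran from 0.000664 to 0.21. Averaged over its tested probe sets, Wls had a log2 difference of -0.22 (limma adjusted p = 0.298).

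The upstream sequences of these genes are shown because they were the members called; the 250 bases before each annotated start are given 5′ to 3′ on the plus strand of GRCm38.p6, from RefSeq.
Rspo1, chr4:124986180-124986429: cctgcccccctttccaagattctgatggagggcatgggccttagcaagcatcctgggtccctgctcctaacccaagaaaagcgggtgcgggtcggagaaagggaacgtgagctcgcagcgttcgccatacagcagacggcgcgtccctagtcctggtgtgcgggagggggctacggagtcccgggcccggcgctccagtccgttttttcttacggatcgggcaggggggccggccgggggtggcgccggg
Wls, chr3:159839400-159839649: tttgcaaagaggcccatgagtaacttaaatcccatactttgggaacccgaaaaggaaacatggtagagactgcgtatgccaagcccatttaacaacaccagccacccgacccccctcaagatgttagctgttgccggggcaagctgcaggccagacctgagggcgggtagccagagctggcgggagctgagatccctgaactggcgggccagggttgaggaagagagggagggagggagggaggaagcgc
Each was searched on both strands for the core letters of the Tcf/Lef motif, CTTTGA or CTTTGT. Neither window holds a match, which says only that these letters are not in these windows. RefSeq windows were at hand for 34 members, and 9 of their 44 windows held a match (20.5%), against 27.6% of all 32851 windows of that length.

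Among the other genes of the R-spondin axis no probe set was called. Rspo3, a second R-spondin, read 108 and 149 in hypomorph and 161 and 143 in wildtype, and its groups overlapped (log2 difference -0.20, limma adjusted p = 0.568). Lgr4, an R-spondin receptor, read 1849 and 1701 against 1848 and 1974 (-0.11). The ligase gene Rnf43 read 1018 and 1034 against 1183 and 1219, both hypomorph arrays below both wildtype arrays (-0.22, SE 0.1, limma adjusted p = 0.241). Its partner Znrf3 read 332 and 422 against 432 and 474, also without overlap (-0.25, SE 0.15, limma adjusted p = 0.374). Rspo1 was therefore the 1 gene of the 5 listed for this axis with a positive difference. Rspo2, an R-spondin outside the list, read 103 and 117 in hypomorph and 72.5 and 79.4 in wildtype, without overlap. It also had a positive difference but was not called (0.39, SE 0.16, limma adjusted p = 0.214).

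Markers of some other cell types differed between the groups beside Rspo1 and Wls. Here a marker that rose or fell is one called in limma. Of all tested genes 4.23% were called, 2.53% higher and 1.7% lower. Of the 7 goblet, 6 endothelial and 5 proliferation markers tested 0 were called, and 4, 1 and 5 of them had negative differences. Of 10 fat cell markers on the array, 8 of the 9 tested rose, and their summed intensity was 30733 and 30164 in hypomorph and 10035 and 10130 in wildtype. Of 10 enterocyte markers, 6 of the 8 tested rose (summed 22034 and 22808 against 15108 and 15803). The wildtype means of the fat cell markers Lep (46.1) and Cidec (27.4) and the enterocyte marker Lct (37.2) lay below the brightness limit of about 47.7. These markers could be tested only through their higher hypomorph values, and their direction is partly set by that filter. Of 13 fibroblast and matrix markers, all tested, 4 rose (summed 38690 and 40284 against 34434 and 34969), among them Col1a1 at 637 ± 7.21 against 336 ± 4.24. Among 8 smooth muscle and pericyte markers 1 fell, Rgs5, and 0 rose (summed 8528 and 8947 against 10025 and 11504). Rgs5 alone, at 155 and 118 against 1140 and 1330, made up a large part of that drop. Of these 8 markers 5 had negative and 3 positive differences. Of 10 enteroendocrine markers, 4 of the 8 tested fell (summed 9242 and 9663 against 12901 and 12063). Of 9 stem cell markers, all tested, 2 fell, Cd44 and Msi1, and 8 had negative differences (summed 19781 and 20039 against 22215 and 21400). Of 8 T and NK cell markers, 2 of the 6 tested rose (summed 4048 and 4331 against 3591 and 3509), and of 7 neuron and glia markers 1 of the 3 tested rose (summed 3635 and 4347 against 2500 and 2355). The summed intensity of 9 Paneth cell markers was 60800 and 64129 against 61991 and 63416, and 2 of the 8 tested rose, Mptx1 (log2 difference 0.83) and Reg3g (0.26). The part of these other cells in the values of Rspo1, Wls and the other members was not tested, and in bulk samples a change in the number of cells of a type and a change in RNA per cell cannot be told apart.

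**Figure D2:**
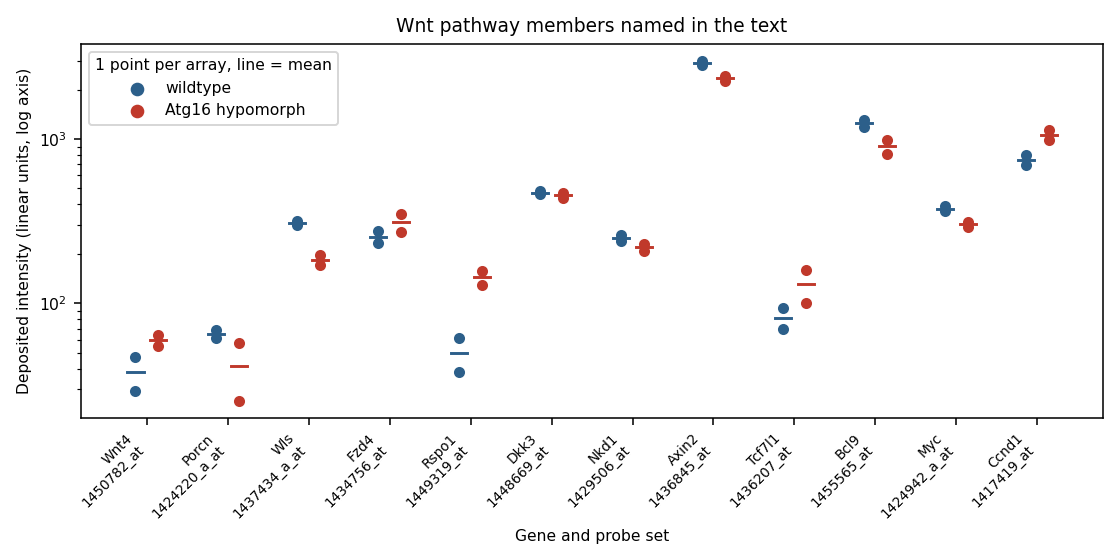
Deposited intensity (linear units on a log axis) of the named member probe sets, 1 point per array, blue for wildtype and red for Atg16 hypomorph, with lines at the group means (n = 2). Rspo1 in hypomorph (129.7 and 158) sits above wildtype (38.2 and 61.2), while Wls probe set 1437434_a_at (172 and 196) sits below (301 and 315).

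Most Wnt ligands were near or below the brightness limit. All probe sets of Wnt3, Wnt3a, Wnt6, Wnt9b and Wnt11 were too dim to test. Wnt3, the ligand known from Paneth cells, is represented by probe set 1450763_x_at alone, whose suffix marks probes that can cross-hybridise. It read 29.9 and 39.9 in hypomorph and 47.8 and 43.6 in wildtype, so a change in Wnt3 could not be assessed. Of the 3 testable ligands limma called 0, and 0 had an unadjusted p under 0.05. Over all tested probe sets the shares were 3.71% and 20.5%, and 3 ligands are too few to compare with them. Wnt4 read 55.3 and 64.1 against 46.9 and 29.5 without overlap (log2 difference 0.40, SE 0.18, 95% interval -0.02 to 0.81, limma adjusted p = 0.262). Both wildtype arrays lay below the limit of about 47.7, so Wnt4 could be tested only through its higher hypomorph values, and its direction is partly set by that filter. Wnt5b, at 295 and 367 against 249.7 and 264, also did not overlap (0.32, SE 0.15, limma adjusted p = 0.274), though its brightest probe set, 1439373_x_at, is again of the cross-hybridising kind. Wnt5a, a ligand best known from stromal cells, read 65.1 and 76.7 against 42.4 and 66.4, and its groups overlapped (0.26).

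Porcn, the acyltransferase that lipid-modifies Wnts, read 25.6 and 57.5 in hypomorph and 61.4 and 69.2 in wildtype (log2 difference -0.44, SE 0.22, limma adjusted p = 0.293). The hypomorph arrays differed more from each other than the second of them did from wildtype. Hypomorph replicate 1 and the hypomorph mean of 41.5 lay below the brightness limit for testing. Porcn could thus be tested only through its higher wildtype values, and its direction is partly set by that filter. It had no fit without wildtype replicate 2 or with the filter at a group mean of at least 100. Without hypomorph replicate 2 the difference was -0.76 and was called (adjusted p = 0.0401, within a range of 0.0401 to 0.819 over its alternatives), and without hypomorph replicate 1, the lowest array, it was -0.12 (adjusted p = 0.819). The value thus rested on which hypomorph array was kept. Porcn lies on the X chromosome, and the groups differed in Xist as given above. The part of sex in this value was not tested and, as for every other gene here, cannot be told apart from that of genotype.

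Of the 13 tested receptor probe sets, which cover 9 of 10 receptor genes, 0 were called by limma and 1 had an unadjusted p under 0.05. Of all tested probe sets 3.71% were called and 20.5% had such a p, so counts among 13 say little. Fzd5, the Frizzled known to be required for Paneth cell maturation, read 2169 and 1971 against 2183 and 2148, with overlapping groups (log2 difference -0.07, 95% interval -0.26 to 0.12). Fzd2 read 2179 and 1855 against 2085 and 1960.4 (-0.01, interval -0.23 to 0.21), and Fzd7 read 636 and 580.4 against 696 and 676 (-0.17). A dimmer Fzd7 probe set, 1450043_at, which was not tested, went the other way, at 49.9 and 63.9 against 39.0 and 33.7. Fzd4 had the smallest p of the brightest receptor probe sets, at 272 and 349.9 against 274 and 233, but its groups overlapped (0.26, SE 0.17, limma adjusted p = 0.41). The co-receptor Lrp6 read 54.8 and 73.9 against 61.9 and 58.7 (0.06), and Lrp5 was too dim to test. The other brightest probe sets, of Fzd1, Fzd3, Fzd6 and Fzd8, had differences between -0.29 and -0.02.

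Fzd3 had the largest differences among the tested receptor probe sets. Its brightest probe set, 1434788_at, read 139.6 and 110.2 against 183 and 137 and overlapped (log2 difference -0.29). Probe set 1449730_s_at read 47.5 and 49.5 against 84.3 and 79.9 without overlap (-0.50, SE 0.16, limma adjusted p = 0.122). Probe set 1450135_at, too dim to test, read 30.9 and 31.7 against 66.3 and 66.0. Of the other 3, all dimmer, 1 was lower and 2 were higher in hypomorph.

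Of the 4 tested probe sets of the listed secreted antagonists limma called 0, and 0 had an unadjusted p under 0.05. The shares over all tested probe sets were 3.71% and 20.5%, and 4 probe sets are too few to compare with them. The brightest of Dkk3 read 466 and 440.5 against 484 and 461 (log2 difference -0.06, interval -0.34 to 0.23, limma adjusted p = 0.849), and the other, lower on both hypomorph arrays, 51.8 and 62.8 against 73.6 and 76 (-0.26, limma adjusted p = 0.41). Dkk2 had a difference of -0.06 and Sfrp5 of 0.05. Sfrp2, Wif1 and Notum stayed at or below 22.8 on every array and were not tested. The Dishevelled gene Dvl1 read 6074 and 6658 against 6396 and 6497 (-0.02, interval -0.16 to 0.12), and Dvl2 and Dvl3 were too dim to test.

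The beta-catenin gene Ctnnb1 was bright and close to even between the groups, at 8825 and 8916 against 9095 and 8836 (log2 difference -0.02, SE 0.05, 95% interval -0.13 to 0.10). Near the top of the intensity scale differences can be compressed. Of the 16 tested probe sets of beta-catenin and its destruction complex 0 were called, and 2 had an unadjusted p under 0.05 in limma. Of all tested probe sets 3.71% were called and 20.5% had such a p. The scaffold gene Apc was lower on both hypomorph arrays with each of its tested probe sets, the brightest at 1293 and 1154 against 1392 and 1359.8 (-0.17) and the other at 885 and 882 against 1110.3 and 1003 (-0.25, limma adjusted p = 0.224). Axin1 read 778 and 734 against 682 and 732 (0.09). The kinase gene Gsk3b had 6 tested probe sets with differences from -0.36 to 0.18, of which 2 were positive, and Csnk1a1 had 3 from -0.16 to 0.20. Btrc, which encodes the ubiquitin ligase subunit that binds beta-catenin, had 2, at 0.13 and -0.09.

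Axin2, a scaffold of the complex and a widely used read-out of Wnt activity, came close to the threshold. It read 2267 and 2424 in hypomorph against 2819 and 2988 in wildtype. Both hypomorph arrays were lower, with means of 2346 ± 111 and 2904 ± 120 (log2 difference -0.30, SE 0.08, 95% interval -0.48 to -0.13), but the adjusted p of 0.0668 in limma missed the threshold. With each gene given by the mean of its tested probe sets, limma called Axin2 (-0.30, adjusted p = 0.0433). Leaving out hypomorph replicate 2 brought the call (adjusted p = 0.0386), within a range over the fits of its probe set of 0.00498 to 0.345.

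Nkd1, which encodes an inhibitor of Dishevelled that Wnt signalling itself is known to induce, read 208 and 230.3 against 239 and 259 without overlap (log2 difference -0.16, SE 0.15, limma adjusted p = 0.577).

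Among nuclear factors, Bcl9, a coactivator that binds beta-catenin, had the smallest p. Its brightest probe set read 814 and 991 in hypomorph and 1301 and 1189 in wildtype without overlap (log2 difference -0.46, SE 0.12, 95% interval -0.72 to -0.19, limma adjusted p = 0.0687). The other, 1451574_at, read 85.9 and 163 against 103 and 175 and overlapped (-0.15). Without hypomorph replicate 2 the first was called (-0.59, adjusted p = 0.0204, within a range of 0.00119 to 0.265). Tcf7l2, the main partner of beta-catenin in intestinal epithelium, read 468 and 438 against 346 and 447, with overlap (0.19, limma adjusted p = 0.515), and its other tested probe set had a difference of -0.07. Tcf7l1, often a repressor, had 2 tested probe sets, at 0.03 and 0.50 (limma adjusted p = 0.922 and 0.222). The dimmer of them was called without hypomorph replicate 2 (adjusted p = 0.0454, within a range of 0.0379 to 0.648). Lef1 stayed at or below 21.5 and was not tested.

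The corepressor genes of the Tle family were not called. Tle1 read 626 and 632 against 581 and 602 with its brightest probe set (log2 difference 0.08) and had -0.22 with the other. Tle2 had a difference of -0.16. Tle3 had 3 tested probe sets at -0.13, -0.13 and 0.50, of which the last, 1449554_at, read 81.4 and 55.1 against 35.8 and 41.2 (limma adjusted p = 0.171). Both wildtype arrays of 1449554_at lay below the same limit. The dimmer Tle1 probe set and 1449554_at could thus be tested only through their brighter group. Their direction is partly set by that filter.

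**Figure D3:**
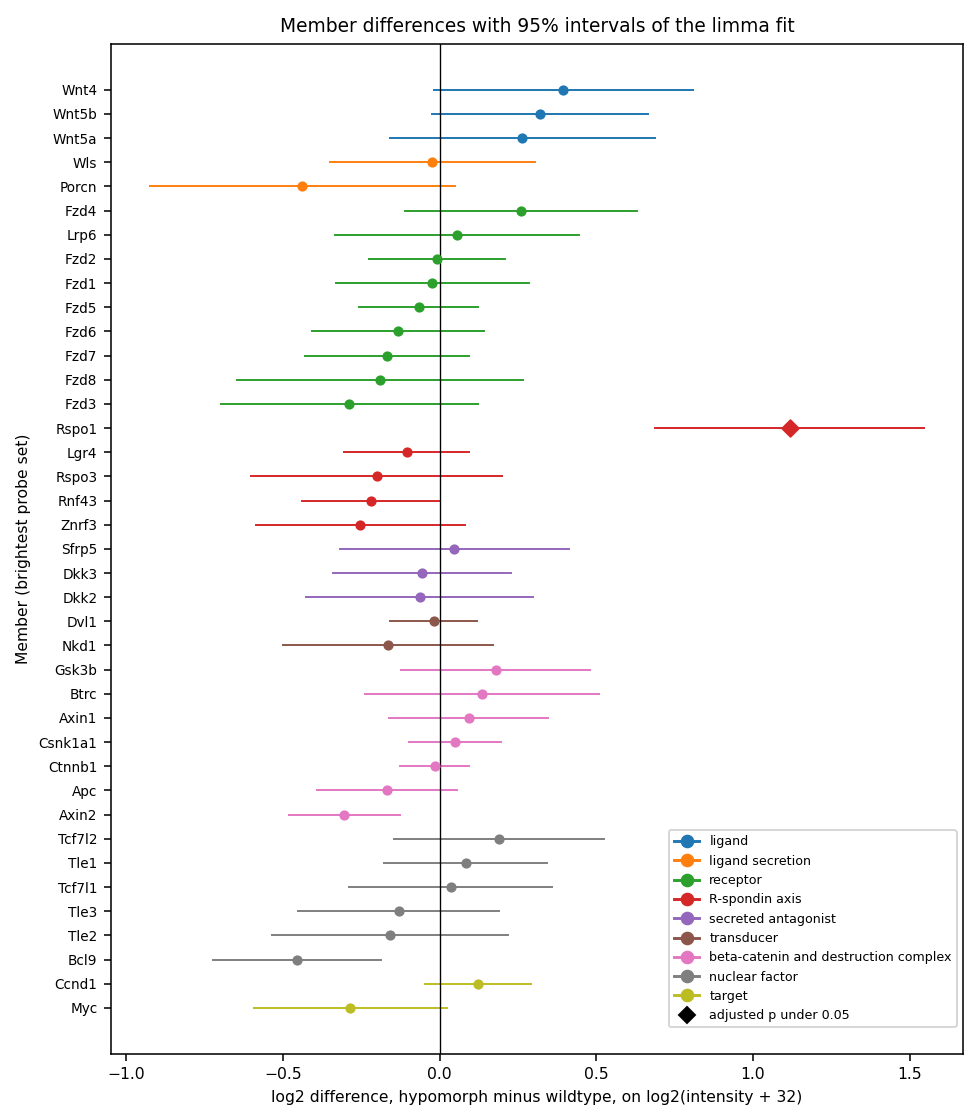
Log2 difference (hypomorph minus wildtype, on log2(intensity + 32)) of the brightest tested probe set of 39 members, with 95% intervals of the limma fit that are not adjusted for the number of tests, coloured by role. Rspo1 at 1.12 is the 1 member called with its brightest probe set (diamond), and Axin2 (-0.30) and Bcl9 (-0.46) have intervals below 0 without being called.

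The 2 target genes of the list had differences of opposite sign, and neither was called. Myc, a growth regulator, read 293 and 314 in hypomorph and 364 and 390.3 in wildtype without overlap (log2 difference -0.29, SE 0.14, limma adjusted p = 0.278). Ccnd1, which encodes cyclin D1, had positive differences with all 3 of its probe sets. The brightest, 1448698_at, read 5777 and 6038 against 5839 and 5044 and overlapped (0.12, limma adjusted p = 0.396). Probe set 1417420_at read 3175 and 2849.5 against 2479 and 2668 (0.22, limma adjusted p = 0.172). The dimmest, 1417419_at, read 1138 and 979 against 698 and 797 (0.48, SE 0.12, limma adjusted p = 0.0605). The latter pair did not overlap, and 1417419_at was called without hypomorph replicate 2 (0.59, adjusted p = 0.0321) and with a robust prior (0.0477), within a range of 0.000995 to 0.251.

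For 17 members more than 1 probe set was tested, giving several readings of the same RNA. In 10 of them all tested probe sets had the same sign, and in 7 the signs were mixed: Btrc, Csnk1a1, Gsk3b, Tcf7l2, Tle1, Tle3 and Wls. For Tle1 and Tle3 the mixed signs rest on probe sets that passed the filter only through their brighter group. The largest range within a gene was 0.69 on the log2 scale, in Wls. Over the tested member probe sets the 95% intervals reached 0.11 to 0.70 to either side, with a median of 0.35, which corresponds to 1.27-fold.

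**Figure D4:**
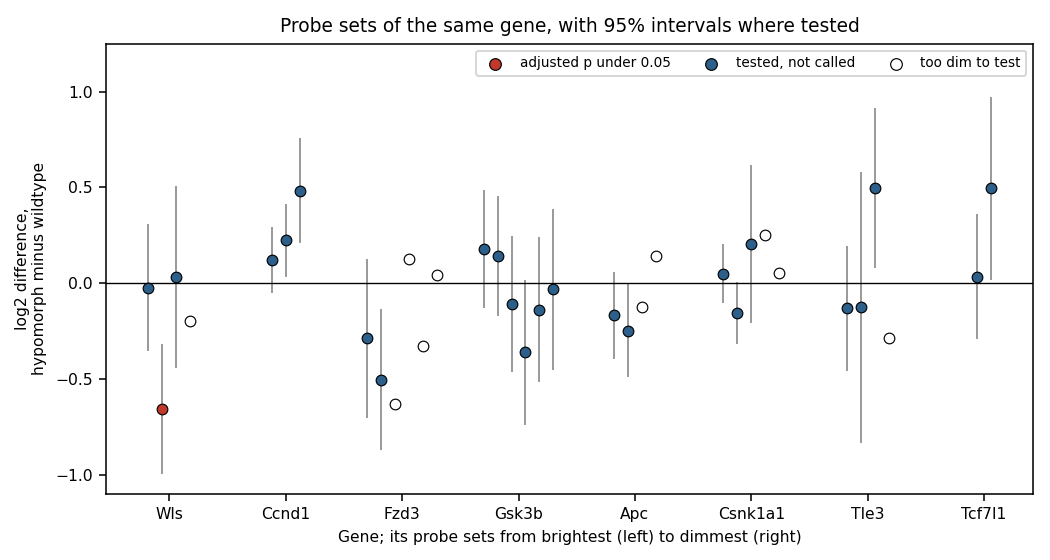
Log2 difference (hypomorph minus wildtype) of each probe set of 8 members, ordered within a gene from brightest to dimmest, with 95% intervals where tested; red marks a call, blue a tested probe set without a call and white one too dim to test. The Wls probe sets range from -0.66 to 0.03, whereas the 3 of Ccnd1 lie between 0.12 and 0.48.

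Beyond the members, 75 of 79 other genes of the pathway were named on the array and 56 could be tested by their brightest probe set. Of these 1 was called higher and 2 lower, or 5.36%, against 4.23% of all genes (2.53% higher and 1.7% lower). Their number was 7 without hypomorph replicate 2, 1 without hypomorph replicate 1 and 0 without wildtype replicate 1. Without either wildtype replicate the brightest Sfrp1 probe set is another one, 1428136_at, which was not called there (0.46 and 0.64, adjusted p = 0.239 and 0.0742), so Sfrp1 leaves these counts. The secreted antagonist Sfrp1 fell, from 1261 and 1346 in wildtype to 254 and 271 in hypomorph (log2 difference -2.18, SE 0.12, limma adjusted p = 8.29e-06). These values come from a probe set of the cross-hybridising kind, and the others conflict: 1448395_at also fell, from 276 and 279.7 to 49.6 and 46.9, whereas 1428136_at read 690.3 and 603 against 402 and 461 and was not called. Tnks, a poly-ADP-ribosyltransferase that destabilises Axin, fell from 1431 and 1302 to 861 and 991 (-0.55, SE 0.11, limma adjusted p = 0.0267). The Wnt5a receptor gene Ror1 rose from 110.1 and 79.2 to 189 and 173 (0.76, SE 0.18, limma adjusted p = 0.0467). For the related receptor Ror2, named after its values were seen, the brightest probe set gave -0.06 and a dimmer one, 1457128_at, fell from 449 and 455 to 203 and 260.4. The call of the Sfrp1 probe set named first, 1438620_x_at, was kept in all 13 alternatives, those of Tnks and Ror1 in 9 and 6 of 13. Both were lost without hypomorph replicate 1 (adjusted p = 0.0898 and 0.118) and without wildtype replicate 1 (0.13 and 0.0503), and Ror1 also without wildtype replicate 2 (0.288). Over the alternatives adjusted p-values ran from 3.72e-05 to 0.13 for Tnks and from 0.00027 to 0.288 for Ror1.

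Of 22 further genes known as Wnt targets in the crypt or in tumours, 20 could be tested, and 1 was called (5% against 4.23% of all genes). This was Cd44, a hyaluronan receptor, which fell from 1241 and 1152 to 856 and 796 (log2 difference -0.52, SE 0.11, limma adjusted p = 0.0278) and was lost without wildtype replicate 1 (adjusted p = 0.148) and without wildtype replicate 2 (0.0557), within a range of 0.000191 to 0.148. Id2, an inhibitor of helix-loop-helix factors, read 729 and 739 against 947 and 938 and was not called (-0.35, limma adjusted p = 0.105). Lgr5, an R-spondin receptor that marks crypt stem cells and stands on both lists, read 768 and 665 against 796 and 755 (-0.11, limma adjusted p = 0.637).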

How the data were processed

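The deposited table holds 1 linear intensity per probe set and array; no source used here gives the authors' scaling, background correction or probe summary. Means trimmed by 2% differed by at most 1.02-fold between arrays, so the deposited intensities were not normalised again. Samples were grouped and numbered from their titles. Of 45101 probe sets, 64 controls were left out, and genes were named where the platform annotation gives 1 symbol (34945 probe sets; 932 have several and 9160 none). All 51 member symbols matched a RefSeq table (GRCm38.p6), which served for names and chromosomes.

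Values were tested as log2(intensity + 32) in limma 3.58.1 under R 4.3.3 (lmFit, eBayes with an intensity trend; 2 residual and 7.81 prior degrees of freedom), two-sided, with Benjamini-Hochberg adjustment over the 22519 probe sets at or above the median mean log2 value of 6.32. A gene is represented by its brightest probe set. The procedure was tested on simulated data. The members and lists were chosen with earlier results of these data known. Members with a called probe set, and in each role the member whose brightest probe set had the smallest p, were given in full; members with probe sets of mixed sign were named; other pathway and target genes were named if called or among the 2 smallest p of their list, and further ones after their values were seen. Alternatives tried were a pseudocount of 1 or 128, median centring, quantile normalisation, no filter or a group mean of at least 100, a robust prior, no intensity trend, gene means, a block for the replicate number, and leaving out each array, where the lone array left is taken to vary as much as the other group.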

Additional observations from a re-analysis of the deposited data

How the results depend on the processing

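Counts of calls depended on the processing. None of the 17 probe sets followed through the alternatives (12 of members, 5 of other genes) changed sign where it could be fitted. They were picked from these same data for a call, a small p or values already seen, so a stable sign was partly fixed beforehand. The filters, the intensity trend, the robust prior and the block leave the difference of a probe set unchanged, so its sign could not change there. The other named genes were not followed. Against 1 member probe set called higher, 1 lower, 3 other pathway genes and 836 probe sets in all, there were 0, 0, 1 and 303 without the filter on dim probe sets, and 0, 0, 1 and 323 without the intensity trend. A robust prior gave 2 called higher, and gene means gave 6 other pathway genes. With each array left out, the ranges were 0 to 3 higher, 0 to 4 lower, 0 to 7 other pathway genes and 500 to 1648 probe sets. The 0 other pathway genes arose without wildtype replicate 1, where another Sfrp1 probe set became the brightest. The upper ends came without hypomorph replicate 2 and the value of 500 without wildtype replicate 2. With the replicate number as a block there were 4 higher, 4 lower, 7 other pathway genes and 3206 probe sets, with Axin2 and Bcl9 among the members called (adjusted p = 0.00498 and 0.00119). Same-numbered arrays had deviations that correlated at 0.264 over probe sets, but with 2 arrays per group and no label tying them together the numbers do not establish pairs. The median of member genes ran from -0.06 to -0.02 over all alternatives. Quantile normalisation, median centring and both pseudocounts left the member counts at 1 and 1.

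Intensities near background limit 12 members whose probe sets were all too dim to test (at most 51.7). The deposited table has no detection calls.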
